A study of Mus musculus with 12 samples.

Results

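The genes described here are 10 members of the hypoxia inducible factor (HIF) pathway, *Hif1a*, *Epas1*, *Vhl*, *Egln1*, *Egln3*, *Vegfa*, *Car9*, *Bnip3*, *Ankrd37* and *Ndrg1*, taken by name from the 24453 genes of the count matrix. All 10 were listed and all 10 passed the filter on low counts. RNA-Seq was performed on 4 lines of mouse embryonic fibroblasts (MEFs), each in 3 biological replicates, which gave 12 libraries. TM6 MEFs are the parental line, SV40 large T immortalized *Pnpt1* fl/fl cells on the C57BL6/J background in which the gene for polynucleotide phosphorylase (PNPase) can be deleted by Cre. MEF rho0 cells are TM6 cells exposed to ditercalinium at 750 ng/mL over 3 weeks and then taken from a single colony, which leaves them without mitochondrial DNA (mtDNA) while *Pnpt1* is not deleted. PKO-1 and PKO-6 are separate PNPase knockout clones, each grown from a single TM6 cell after an adenovirus carrying Cre. All 4 lines were kept in medium with 50 µg/mL uridine, and no oxygen treatment is described for any of them. TM6 is 1 line and each of the others is 1 colony or clone of it, so the 3 replicates measure the spread between cultures and not the spread between clones of the same genotype.

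HIF is a transcription factor made of an oxygen-labile alpha subunit (HIF-1α from *Hif1a*, HIF-2α from *Epas1*) and a stable beta subunit. When oxygen is plentiful, prolyl hydroxylases (*Egln1*, *Egln3*) mark the alpha subunit and the VHL protein directs it to the proteasome, so the factor is set mostly at the level of protein and not of mRNA. When it accumulates it binds a short core in DNA and raises genes for vessel growth, glycolysis, acid export and mitochondrial removal. Mitochondria consume most of the oxygen of a cell, and the question here is how the mRNAs of this pathway stood in lines that had lost respiration.

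The core that HIF binds is written ACGTG or GCGTG, and it was searched on both strands (reverse complements CACGT and CACGC) in the 250 bases before the start of each gene in RefSeq (GRCm38.p6). Promoter windows were given for 8 of the 10 genes, 9 windows in all since *Vegfa* has a second start inside the gene. *Hif1a* also has another start, upstream of its main start, for which no window was given and none was searched. ACGTG stood in 7 of the 9 windows and GCGTG in 4, while among all 32851 mouse windows ACGTG stood in 16.6%, GCGTG in 28.2% and either of them in 38.6%. The genes were chosen as members of the HIF pathway and the windows were not matched for base composition, so enrichment was not tested. The 250 bases before the starts of 5 target or feedback genes are printed 5′ to 3′ on the strand of the gene, so that the cores can be set beside the values given for these genes below. Capitals mark every core on either strand.
*Vegfa* (chr17:46032378-46032627, minus strand): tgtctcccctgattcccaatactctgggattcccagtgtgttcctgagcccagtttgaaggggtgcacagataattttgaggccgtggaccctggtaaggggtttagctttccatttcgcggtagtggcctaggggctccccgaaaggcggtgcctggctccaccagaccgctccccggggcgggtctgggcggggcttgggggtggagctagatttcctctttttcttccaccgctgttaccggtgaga
*Egln3* (chr12:54203875-54204124, minus strand): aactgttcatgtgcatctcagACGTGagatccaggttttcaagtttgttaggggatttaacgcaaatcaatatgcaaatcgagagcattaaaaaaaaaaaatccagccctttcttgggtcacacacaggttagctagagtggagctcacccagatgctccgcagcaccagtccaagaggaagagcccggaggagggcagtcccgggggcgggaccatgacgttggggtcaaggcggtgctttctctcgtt
*Car9* (chr4:43506776-43507025, plus strand): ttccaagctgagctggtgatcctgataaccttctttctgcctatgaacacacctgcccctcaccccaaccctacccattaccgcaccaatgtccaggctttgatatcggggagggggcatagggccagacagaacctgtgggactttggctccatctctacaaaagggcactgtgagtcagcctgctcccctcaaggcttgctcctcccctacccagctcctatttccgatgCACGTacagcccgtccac
*Bnip3* (chr7:138909507-138909756, minus strand): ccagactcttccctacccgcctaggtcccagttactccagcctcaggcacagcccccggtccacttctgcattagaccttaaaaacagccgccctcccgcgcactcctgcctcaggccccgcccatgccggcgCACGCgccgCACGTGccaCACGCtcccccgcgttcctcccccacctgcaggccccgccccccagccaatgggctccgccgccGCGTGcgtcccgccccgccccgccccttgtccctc
*Ankrd37* (chr8:45999851-46000100, minus strand): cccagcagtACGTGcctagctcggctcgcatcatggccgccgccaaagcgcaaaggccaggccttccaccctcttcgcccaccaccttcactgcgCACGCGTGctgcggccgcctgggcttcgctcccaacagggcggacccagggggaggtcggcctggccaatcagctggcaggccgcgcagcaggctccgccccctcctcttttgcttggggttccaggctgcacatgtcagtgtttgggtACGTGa
The window before the main *Vegfa* start held 0 cores. *Egln3* held 1 core that began 229 bases before the start, and *Car9* held 1 that began 18 bases before it. *Bnip3* held 5 cores, of which 2 are the overlapping strands of the palindrome CACGTG, which 6.02% of all windows hold and which other transcription factors also bind. *Ankrd37* held 4 cores, 1 of them 6 bases before the start and 2 of them overlapping on opposite strands. Of the windows not printed, *Hif1a* held 3 cores, *Egln1* held 2, the internal start of *Vegfa* held 2 and *Vhl* held 0. In *Hif1a* too, 2 of the cores are the overlapping strands of CACGTG. A core is only a match of letters, and its absence from 250 bases says nothing of more distant sites.

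The libraries held 47164860 to 67991378 estimated counts (median 55405647), and 14026 genes were tested. *Pnpt1*, the deleted gene, had a mean of 3131 ± 262 normalized counts in TM6 (SD, n = 3), 5271 ± 230 in rho0, 1240 ± 44.3 in PKO-1 and 1944 ± 250 in PKO-6, so its RNA was lower in both knockout clones than in TM6 and was still counted there. Normalized counts are counts divided by the effective size of the library relative to the mean library. The fibroblast markers summed to 6624 to 6824 TPM (transcript counts scaled for length and library) in TM6, 3764 to 3866 in rho0, 6795 to 6959 in PKO-1 and 3026 to 3347 in PKO-6. *Thy1* was at 0 in PKO-6 and at most at a mean of 0.0567 TPM in the other lines. Endothelial markers reached at most 1.00 TPM in sum and leukocyte markers at most 6.15, with *Adgre1* at 0 in every line. Epithelial markers summed to 6.11 to 6.55 TPM in TM6, 10.2 to 11.7 in rho0, 19.2 to 20.1 in PKO-1 and 1.65 to 2.01 in PKO-6. Most of it was *Krt18* in TM6, rho0 and PKO-1, while in PKO-6 *Krt18* was at a mean of 0.190 TPM and *Epcam* at 1.36, and *Krt5* was at 0 in every line. Of the 10 fibroblast markers, 9 had a lower mean than TM6 in rho0, 5 in PKO-1 and 7 in PKO-6, and the others, *Fn1* among them in all 3 lines, had a higher one. The part that these marker levels have in the results below was not tested. Within their lines, rho0 replicate 1 and PKO-6 replicate 3 stood apart. The chi-square per degree of freedom between libraries was 89.0 and 67.6 for rho0 replicate 1 against replicates 2 and 3, beside 4.76 between those, and 83.3 and 142 for PKO-6 replicate 3 against replicates 1 and 2, beside 25.6 between those. Without both libraries, a fit chosen after the data were seen, the same 7 of the 10 genes were called against TM6 in each line.

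Of the 10 genes, *Vegfa* and *Egln3* rose in all 3 respiration deficient lines, a pattern that 8.28% of the tested genes shared. *Car9* and *Bnip3* rose in rho0 and PKO-1 and did not pass the test in PKO-6. *Ndrg1* and *Epas1* were called in opposite directions in the knockout clones, and a call in opposite directions in any pair of the 3 lines was made for 3.41% of tested genes. A gene was called where the adjusted p was below 0.01 and the absolute log2 fold change above 0.5. Against TM6, 7 of the 10 genes were called in rho0, 5 higher and 2 lower, beside 42.1% of all tested genes (20.7% higher and 21.4% lower). In PKO-1, 7 were called, 5 higher and 2 lower, beside 34.3% of all genes (16.4% higher and 17.9% lower). In PKO-6, 7 were called, 4 higher and 3 lower, beside 41.3% (21.9% higher and 19.4% lower). The libraries of rho0 and TM6 did not overlap for any of the 10 genes (72.8% of all genes), those of PKO-1 and TM6 for 9 (71.8%) and those of PKO-6 and TM6 for 7 (71.9%). The 3 comparisons use the same TM6 libraries, so a deviation of those libraries would enter all of them.

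**Figure D1:**
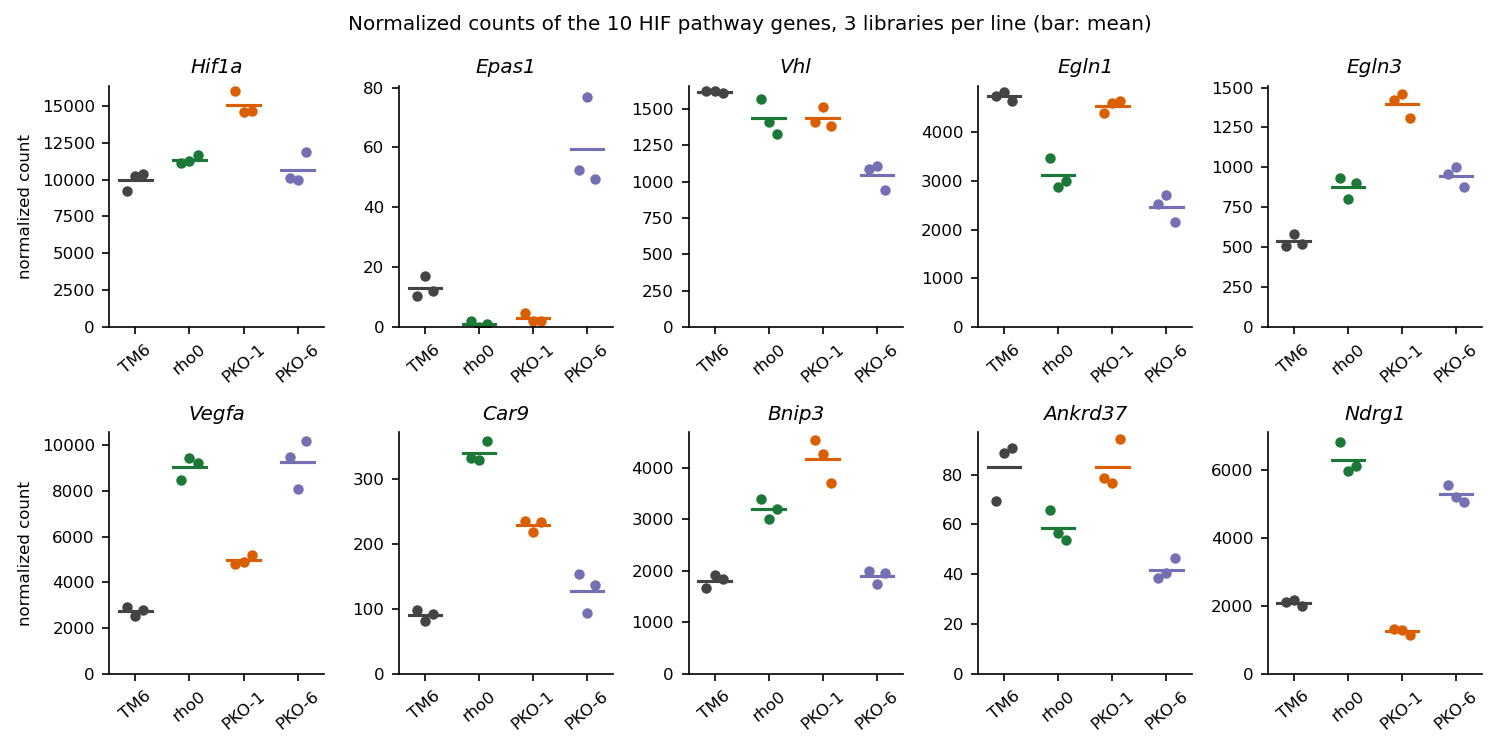
Normalized counts of each gene in the 12 libraries, with 1 panel per gene, the 4 lines along the x axis, 1 point per library and a bar at the mean of each line; each y axis starts at 0. *Vegfa* and *Egln3* stood above TM6 in every library of the other lines, *Ndrg1* was high in rho0 and PKO-6 and lowest in PKO-1, and *Epas1* stayed below 80 in all libraries.

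*Hif1a*, which encodes the oxygen-labile subunit of HIF-1, was abundant in every line. The 3 TM6 libraries held 9216, 10260 and 10360 normalized counts and the rho0 libraries 11090, 11260 and 11670. PKO-1 held 16000, 14610 and 14640, and PKO-6 held 10120, 9948 and 11900. PKO-1 was the highest line, with no overlap with any other, and PKO-6 overlapped TM6 and rho0. *Hif1a* rose 1.52-fold in PKO-1 (log2 fold change 0.60, SE 0.0732, adjusted p = 7.01e-06), and the differences in rho0 (log2 0.19, adjusted p = 0.0319) and PKO-6 (log2 0.10, adjusted p = 0.238) were not called. *Hif1a* lies on chromosome 12 (chr12:73901324-73947554, mm10, plus strand), where the median of the 491 tested genes was itself shifted against TM6, by a log2 of 0.55 in rho0, 0.56 in PKO-1 and 0.53 in PKO-6. With the chromosome median taken off, the difference of *Hif1a* was -0.36 in rho0 (adjusted p = 0.000594), 0.04 in PKO-1 (adjusted p = 0.632) and -0.43 in PKO-6 (adjusted p = 0.000126) on the log2 scale. None was called, and those in rho0 and PKO-6 missed the call by the size of the difference only.

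*Epas1*, which encodes the alpha subunit of HIF-2, was barely present, at a mean of 0.0767 TPM in TM6 and 0.333 TPM in PKO-6, against 66.5 and 69.7 TPM for *Hif1a* in the same lines. It passed the filter on low counts through the libraries of PKO-6, where it was highest, and those of TM6 alone would not have passed. Its calls that involve PKO-6 are therefore given as a description. In the fit without that filter its calls against TM6 were kept. TM6 held 10.4, 17.2 and 12.0 normalized counts, rho0 held 1.94, 0 and 1.12, PKO-1 held 4.76, 2.13 and 2.07, and PKO-6 held 52.4, 76.7 and 49.5. Every PKO-6 library was above and every rho0 and PKO-1 library below the TM6 libraries. Those of rho0 and PKO-1 held so few counts that the lines were not called apart (adjusted p = 0.162). *Epas1* rose in PKO-6 by a log2 of 2.16 (SE 0.311, adjusted p = 2.67e-05), a ratio of counts of 4.48 (189 against 42 counts, 95% exact interval 3.20 to 6.42). In PKO-1 it was called lower (adjusted p = 0.00205), with 8 counts in all and a ratio to TM6 of 0.222 (interval 0.0902 to 0.480), and the call was lost without PKO-1 replicate 2 (log2 -1.94, adjusted p = 0.0114) or replicate 3 (log2 -1.92, adjusted p = 0.0115). In rho0 it was called lower (adjusted p = 0.000156) on 3 counts in all, a ratio of 0.0809 (interval 0.0160 to 0.253). These intervals cover counting error only.

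*Vhl*, the substrate receptor of the ligase that degrades HIF alpha, held 1621, 1623 and 1610 normalized counts in TM6. It held 1566, 1412 and 1330 in rho0, 1411, 1514 and 1379 in PKO-1 and 1085, 1107 and 944 in PKO-6. All other libraries were below TM6, with PKO-6 the lowest, and rho0 overlapped PKO-1. *Vhl* fell 1.55-fold in PKO-6 (log2 -0.63, SE 0.0731, adjusted p = 3.33e-06), while rho0 (log2 -0.17, adjusted p = 0.0471) and PKO-1 (log2 -0.17, adjusted p = 0.0498) were not called.

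*Egln1* encodes PHD2, the main hydroxylase that marks HIF-1α under normal oxygen. TM6 held 4742, 4810 and 4632 normalized counts and PKO-1 4380, 4592 and 4627. The rho0 libraries held 3477, 2875 and 2999, and PKO-6 held 2522, 2716 and 2153. PKO-1 lay just under TM6, with rho0 and PKO-6 well below both. *Egln1* fell 1.52-fold in rho0 (log2 -0.60, SE 0.0817, adjusted p = 1.63e-05) and 1.92-fold in PKO-6 (log2 -0.94, SE 0.0822, adjusted p = 1.84e-07), and PKO-1 did not pass the test (log2 -0.06, adjusted p = 0.532). The median of the 739 tested genes of chromosome 8, where *Egln1* lies, was -0.18 in rho0, -0.11 in PKO-1 and -0.43 in PKO-6, and with it taken off the call in rho0 was lost (log2 -0.42) and that in PKO-6 held (log2 -0.51, adjusted p = 7.53e-05).

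*Egln3* encodes PHD3, a hydroxylase whose own gene is a target of HIF and so part of a feedback loop. It held 511, 581 and 519 normalized counts in TM6, and 933, 801 and 903 in rho0. PKO-1 held 1420, 1462 and 1310, and PKO-6 held 961, 1002 and 877. Every library of the other lines was above every TM6 library, PKO-1 was the highest line, and rho0 and PKO-6 overlapped. *Egln3* rose 1.64-fold in rho0 (log2 0.71, SE 0.0826, adjusted p = 3.43e-06), 2.60-fold in PKO-1 (log2 1.38, SE 0.0823, adjusted p = 5.53e-09) and 1.76-fold in PKO-6 (log2 0.82, SE 0.0822, adjusted p = 7.74e-07). *Egln3* shares chromosome 12 with *Hif1a*. With the chromosome median taken off, the rise in PKO-1 kept its call (log2 0.82, adjusted p = 1.21e-06), and the calls in rho0 (log2 0.16, adjusted p = 0.0950) and PKO-6 (log2 0.29, adjusted p = 0.00693) were lost.

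**Figure D2:**
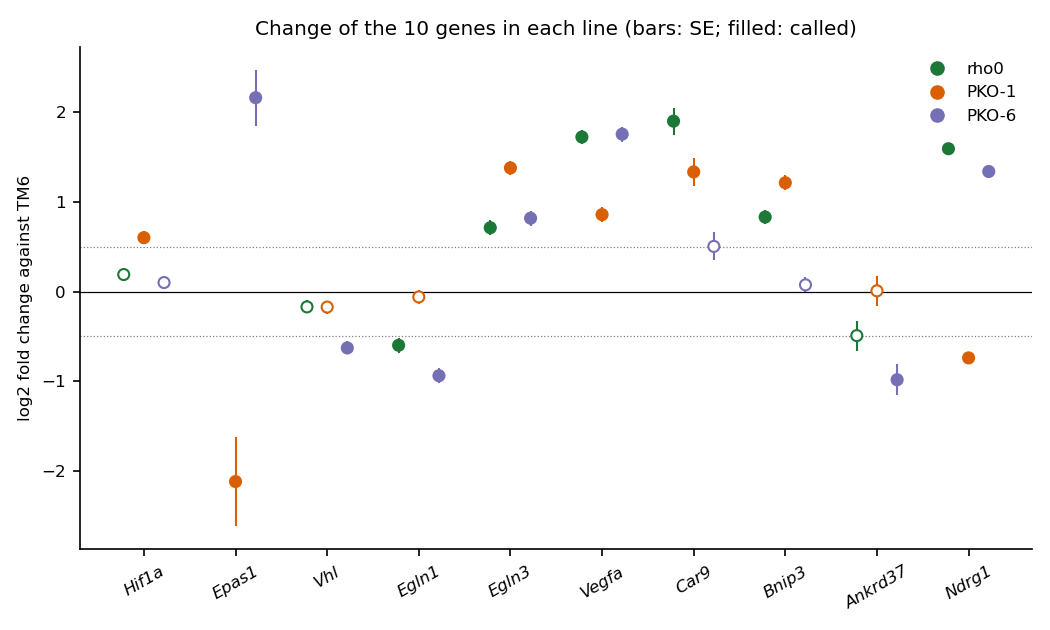
Log2 fold change of each gene against TM6 in rho0, PKO-1 and PKO-6, with bars for the SE, filled points where the gene was called and dotted lines at -0.5 and 0.5. *Epas1* in rho0 is not drawn because no rho0 library held more than 3 counts; *Ndrg1* lies at 1.59 in rho0, -0.74 in PKO-1 and 1.34 in PKO-6.

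*Vegfa* encodes the main growth factor for blood vessels. TM6 held 2914, 2526 and 2774 normalized counts, PKO-1 4806, 4880 and 5207, rho0 8471, 9455 and 9237, and PKO-6 9490, 8097 and 10170. PKO-1 stood between TM6 and the other pair of lines without overlap, and rho0 and PKO-6 overlapped. *Vegfa* rose 3.31-fold in rho0 (log2 1.73, SE 0.0832, adjusted p = 4.81e-10), 1.81-fold in PKO-1 (log2 0.86, SE 0.0822, adjusted p = 6.66e-07) and 3.38-fold in PKO-6 (log2 1.76, SE 0.0832, adjusted p = 3.23e-10). All 3 calls held with the median of chromosome 17 taken off, at log2 1.47, 0.66 and 1.56.

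*Car9* encodes carbonic anhydrase IX, a surface enzyme that handles acid outside the cell and is a widely used marker of HIF-1 activity. Its level was low, at a mean of 1.55 TPM in TM6. TM6 held 98.6, 81.2 and 92.7 normalized counts, rho0 333, 329 and 358, PKO-1 236, 219 and 234, and PKO-6 154, 94.3 and 137. The order was rho0, PKO-1, PKO-6 and TM6, and the PKO-6 library at 94.3 lay within the range of TM6. *Car9* rose 3.74-fold in rho0 (log2 1.90, SE 0.151, adjusted p = 7.74e-08) and 2.52-fold in PKO-1 (log2 1.33, SE 0.153, adjusted p = 3.95e-06). In PKO-6 the log2 difference was 0.50 (adjusted p = 0.0107) and was not called, and it was called at 0.64 (adjusted p = 0.000416) without PKO-6 replicate 2.

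*Bnip3* encodes a mitochondrial outer membrane protein that takes part in the removal of mitochondria by autophagy. TM6 held 1661, 1909 and 1831 normalized counts, rho0 3393, 3015 and 3198, PKO-1 4544, 4277 and 3711, and PKO-6 1990, 1735 and 1958. The rho0 and PKO-1 libraries were all above TM6, while PKO-6 overlapped it. *Bnip3* rose 1.78-fold in rho0 (log2 0.83, SE 0.0823, adjusted p = 7.14e-07) and 2.32-fold in PKO-1 (log2 1.21, SE 0.0825, adjusted p = 2.08e-08), and the difference in PKO-6 was a log2 of 0.07 (SE 0.0826, adjusted p = 0.439).

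*Ankrd37*, an ankyrin repeat gene used in many hypoxia signatures, had the fewest counts of the 5 targets in TM6, not scaled for length. In TPM it stood above *Car9* there, at a mean of 3.49 against 1.55. TM6 held 69.2, 88.9 and 90.7 normalized counts, rho0 65.9, 56.5 and 53.6, PKO-1 78.6, 76.7 and 94.1, and PKO-6 38.5, 40.4 and 46.5. None of the lines was above TM6 without overlap, and PKO-6 was the lowest. *Ankrd37* fell 1.98-fold in PKO-6 (log2 -0.99, SE 0.172, adjusted p = 0.000158), and rho0 (log2 -0.49, adjusted p = 0.0177) and PKO-1 (log2 0.01, adjusted p = 0.971) were not called. With the median of chromosome 8 taken off, PKO-6 was at -0.56 and not called (adjusted p = 0.0107). The gene overlaps *Ufsp2* on the opposite strand by 49 exonic bases, and *Ufsp2* was itself lower in PKO-6 (log2 -0.71, SE 0.0802, adjusted p = 2.36e-06). Whether the counting used the strand of the reads is not given in the sources used here, so reads in those bases cannot be assigned to either gene.

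*Ndrg1*, a gene of growth arrest and stress that hypoxia induces in many cell types, separated the knockout clones. TM6 held 2098, 2184 and 1982 normalized counts and rho0 6825, 5968 and 6117. PKO-1 held 1314, 1288 and 1147, and PKO-6 5564, 5221 and 5071. None of the 4 lines overlapped, with PKO-1 below TM6 and rho0 and PKO-6 far above it. *Ndrg1* rose 3.02-fold in rho0 (log2 1.59, SE 0.0687, adjusted p = 1.63e-10) and 2.53-fold in PKO-6 (log2 1.34, SE 0.0684, adjusted p = 6.90e-10), and fell 1.67-fold in PKO-1 (log2 -0.74, SE 0.0701, adjusted p = 5.90e-07). The 3 calls held with the median of chromosome 15 taken off.

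**Figure D3:**
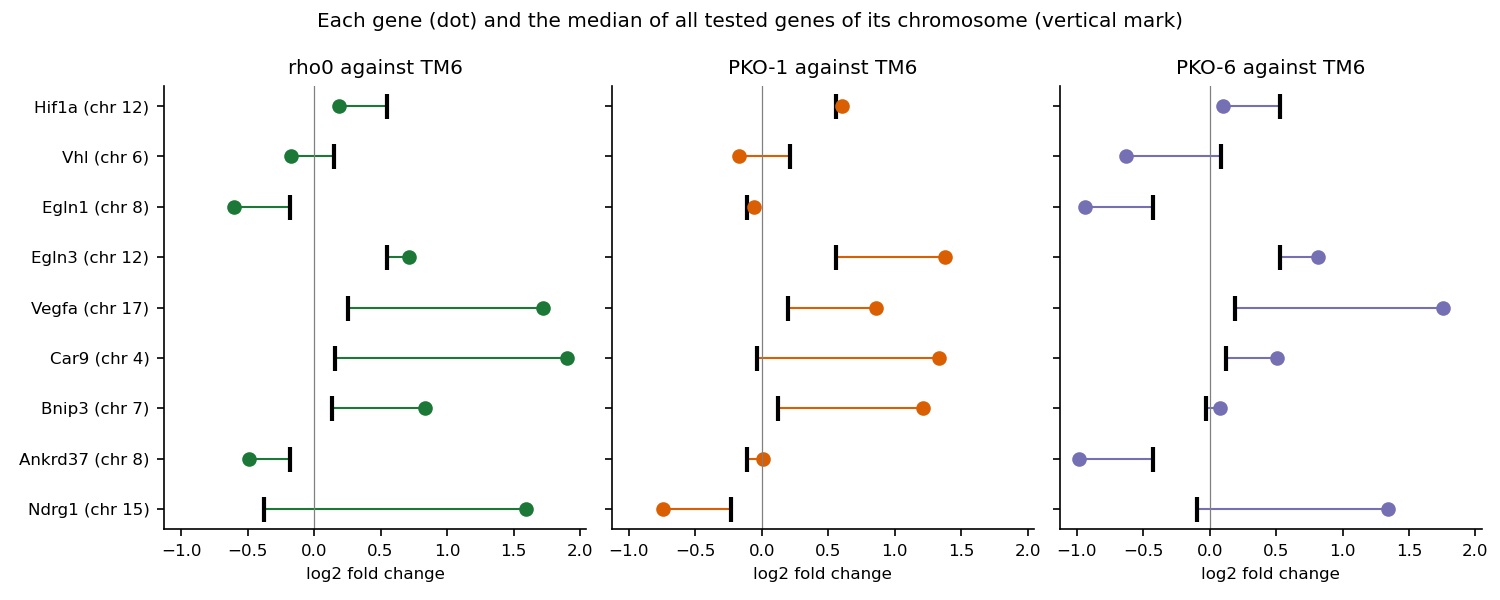
Log2 fold change of 9 of the genes against TM6 (dots) beside the median of all tested genes of the same chromosome (vertical marks), with 1 panel per line; *Epas1* is left out for its low counts. *Hif1a* in PKO-1 sits next to the mark of chromosome 12, at 0.60 beside 0.56, while *Vegfa* and *Ndrg1* lie far from the marks of their chromosomes in all 3 panels.

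The knockout clones were next compared with each other. Of the 10 genes, 9 were called between PKO-1 and PKO-6, beside 29.1% of all tested genes, 6 of them higher in PKO-1 and 3 lower, where 11.5% and 17.6% of all genes were higher and lower. *Ndrg1* was lower in PKO-1 by a log2 of -2.08 (SE 0.0709, adjusted p = 2.50e-11) and *Vegfa* by -0.90 (SE 0.0812, adjusted p = 4.56e-07), as was *Epas1*. *Bnip3* was higher in PKO-1 by a log2 of 1.14 (SE 0.0823, adjusted p = 4.66e-08), *Ankrd37* by 0.99 (adjusted p = 0.000222), *Egln1* by 0.88 (adjusted p = 6.32e-07), *Car9* by 0.83 (adjusted p = 0.000262) and *Egln3* by 0.56 (adjusted p = 3.49e-05). *Hif1a* was higher by a log2 of 0.50 (adjusted p = 4.43e-05), which is at the threshold. The call was lost in 5 of 7 other settings, at values from 0.48 to 0.50, and in 3 fits with 1 library left out. *Vhl* differed by 0.46 and was not called. The median gene of chromosome 8 was itself higher in PKO-1 by a log2 of 0.30. With chromosome medians removed, *Egln1* was at 0.57 and *Ankrd37* at 0.68, both still called, and 8 of the 10 genes were called. Both clones carry the same *Pnpt1* deletion, so these differences lie between clones of 1 *Pnpt1* genotype. Whether the clones are alike in the rest of the genome was not tested. The median gene of chromosome 13 differed between them by a log2 of -0.41 and that of chromosome 9 by -0.37.

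Each clone was also compared with rho0. Between PKO-6 and rho0, 3 of the 10 genes were called, beside 21.5% of all genes (13.3% higher and 8.16% lower), with *Epas1* higher in PKO-6 and *Car9* (log2 -1.40, SE 0.147, adjusted p = 3.23e-06) and *Bnip3* (log2 -0.76, SE 0.0821, adjusted p = 4.55e-06) lower. Between PKO-1 and rho0, 5 were called, beside 32.7% of all genes (15.1% higher and 17.6% lower). *Egln3* (log2 0.67, adjusted p = 7.41e-06) and *Egln1* (log2 0.54, adjusted p = 6.29e-05) were higher in PKO-1. *Ndrg1* (log2 -2.34, adjusted p = 1.63e-11), *Vegfa* (log2 -0.87, adjusted p = 6.46e-07) and *Car9* (log2 -0.57, adjusted p = 0.00322) were lower in it. The call of *Car9* was lost without rho0 replicate 3 or any 1 of the PKO-1 libraries (log2 -0.58 to -0.53, adjusted p = 0.0103 to 0.017), and that of *Egln1* without rho0 replicate 2 (log2 0.48). With chromosome medians removed, *Car9* (log2 -0.37, adjusted p = 0.0344) and *Egln1* (log2 0.47) were not called, which left 3 genes for PKO-1, while *Ndrg1* became a call for PKO-6 (log2 -0.54, adjusted p = 1.7e-05), which made 4. *Vegfa* was not called between PKO-6 and rho0 (log2 0.03, SE 0.0802, adjusted p = 0.759).

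Levels between genes were compared in TPM, which accounts for the length of the transcripts. In TM6, *Hif1a* was the most abundant of the 10 genes, at 66.5 ± 4.06 TPM (SD, n = 3), followed by *Egln1* at 42.9 ± 0.589, *Bnip3* at 34.7 ± 2.27, *Vegfa* at 26.4 ± 2.30, *Ndrg1* at 23.4 ± 0.974 and *Vhl* at 19.2 ± 0.130. *Egln3* stood at 6.52 ± 0.410 TPM, *Ankrd37* at 3.49 ± 0.511 and *Car9* at 1.55 ± 0.164. In rho0, *Vegfa* reached 88.1 ± 12.0 TPM and *Ndrg1* 69.4 ± 0.229, beside 75.4 ± 6.78 for *Hif1a*. In PKO-1, *Hif1a* (96.8 ± 5.78 TPM) and *Bnip3* (76.8 ± 6.19) were the most abundant, and *Ndrg1* was at 13.3 ± 0.597.

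*Hif1a* and *Vegfa* were the members with more than 1 annotated transcript. *Hif1a* has 3, of which 1 starts upstream of the main start and has a coding length of 2433 bases, beside 2511 for the main transcript. The upstream start took 14.5%, 19.1% and 16.5% of the *Hif1a* counts in TM6, 21.8%, 27.4% and 23.5% in rho0, 24.7%, 22.4% and 20.3% in PKO-1, and 29.9%, 24.0% and 30.3% in PKO-6. Every library of the other lines was above every TM6 library. *Vegfa* has 10 annotated transcripts, of which 3 begin at the internal start. That start took 8.37% ± 2.67 of the counts in TM6 (SD, n = 3), 16.8% ± 3.87 in rho0, 6.00% ± 1.91 in PKO-1 and 11.0% ± 4.47 in PKO-6, and the ranges of TM6 and PKO-6 overlapped. The transcripts that lack both of the optional exons, 1 of which begins at the internal start, made up 42.7% ± 4.26 in TM6, 38.2% ± 2.63 in rho0, 47.6% ± 2.02 in PKO-1 and 38.5% ± 2.41 in PKO-6. For these transcripts the range of TM6 overlapped that of every other line. RSEM divides reads that isoforms share by a model, so these shares are descriptions and were not tested.

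The wider pathway was described with 9 lists of 86 genes, the 10 included, of which 82 were tested. Against TM6, 20 were called higher and 21 lower in rho0, beside 20.7% and 21.4% of all tested genes. In PKO-1, 21 were called higher and 18 lower, beside 16.4% and 17.9%. In PKO-6, 16 were called higher and 22 lower, beside 21.9% and 19.4%. The counts of single lists below stand beside the same shares. The median log2 fold change of the 82 genes was 0.05, 0.08 and -0.07 in these comparisons, beside 0.02, 0.00 and 0.01 for all tested genes. Calls thus fell on both sides of TM6 in every line, as they did among all tested genes. Called higher in all 3 lines were 7 of the 82 genes and called lower in all 3 were 11, beside 8.28% and 9.25% of all tested genes. A further 4 were called in opposite directions, beside 3.41% of all tested genes.

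Among the subunits, 4 of 5 genes were tested, and *Arnt*, the constitutive partner of HIF alpha, was not called in any line (log2 -0.35 in rho0, -0.21 in PKO-1 and -0.49 in PKO-6). Of the 11 sensing and degradation genes, 2 rose and 2 fell in rho0, 2 rose and 0 fell in PKO-1, and 2 rose and 3 fell in PKO-6. The 2 that rose were the same in all 3 lines, *Egln3* and *Cul2*, the scaffold of the VHL ligase (mean 3927 ± 325 normalized counts in TM6, 8366 ± 347 in rho0, 6607 ± 253 in PKO-1 and 7756 ± 508 in PKO-6). *Cul2* lies on chromosome 18, where the median gene was at a log2 of 0.42, 0.42 and 0.34 against TM6, and with chromosome medians removed *Cul2* was at 0.67 in rho0, 0.33 in PKO-1 (not called) and 0.64 in PKO-6, while *Egln3* kept its call in PKO-1 and lost those in rho0 and PKO-6. Of the 20 genes of glucose use, 4 rose and 3 fell in rho0, 3 rose and 2 fell in PKO-1, and 1 rose and 3 fell in PKO-6. *Hk2*, an inducible hexokinase, rose in all 3 lines (log2 1.38, 1.13 and 1.06), and *Slc2a3*, a glucose transporter with 35.7 normalized counts in TM6, fell in all 3 (log2 -1.61, -3.39 and -3.00). The mean of *Slc2a3* was 11.48 normalized counts in rho0, 3.342 in PKO-1 and 4.335 in PKO-6, so these sizes rest on few counts. None of the other 18 genes of this list was called the same way in all 3 lines.

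Among 8 tested genes of mitochondrial adjustment, 4 rose and 1 fell in rho0, 4 rose and 0 fell in PKO-1, and 3 rose and 1 fell in PKO-6. *Lonp1*, the protease of the mitochondrial matrix, rose in all 3 (log2 2.05, 0.54 and 1.68), and in PKO-1 its call was lost with chromosome medians removed (log2 0.34). The gene that fell in rho0 and PKO-6 was *Fundc1*, a receptor for the removal of mitochondria (log2 -1.06 and -0.72), and with chromosome medians removed it was at -0.30 and 0.15, neither of them called. In PKO-1 *Fundc1* was not called (log2 -0.09), and with chromosome medians removed it was called higher (log2 0.65, adjusted p = 3.65e-06). In the list of pH, iron and redox genes, *Ero1l*, an oxidase of protein folding in the endoplasmic reticulum, rose in all 3 lines (log2 2.31, 1.33 and 1.49). *Slc4a4*, a bicarbonate transporter, had 151 ± 17.8 normalized counts in TM6 and a mean below 1 in each other line. *Car12*, another carbonic anhydrase at the cell surface, fell in PKO-1 (log2 -1.10) and rose in PKO-6 (log2 1.94), and PKO-1 was lower than PKO-6 by a log2 of -3.04 in the direct test.

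The list of secreted signals held changes in both directions. *Stc2*, a secreted glycoprotein of the stress response, rose from 79.6 ± 4.72 normalized counts in TM6 to 1231 ± 15.2 in rho0, 346 ± 5.47 in PKO-1 and 782 ± 32.7 in PKO-6. *Cxcl12*, a chemokine, fell from 19050 ± 385 in TM6 to 152 ± 3.33 in rho0, 2.59 ± 0.850 in PKO-1 and 7.13 ± 2.87 in PKO-6. *Pdgfb*, a growth factor for mural cells, fell in all 3 lines (log2 -4.36, -3.96 and -2.00), and *Angptl4*, an inhibitor of lipoprotein lipase, had 37.1 ± 5.92 normalized counts in TM6 and at most a mean of 1.06 in the other lines. The matrix enzymes and collagens included *Loxl2* (log2 -1.45, -1.90 and -2.90) and *Col5a1* (log2 -1.25, -1.25 and -2.48), which fell in all 3. The HIF-induced repressor *Bhlhe40* fell in all 3 lines (log2 -0.99, -1.29 and -2.02), and *Ccng2*, a cyclin of arrested cells, fell in rho0 (log2 -1.03) and rose in PKO-1 (log2 0.56, and 0.47 with chromosome medians removed, not called).

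**Figure D4:**
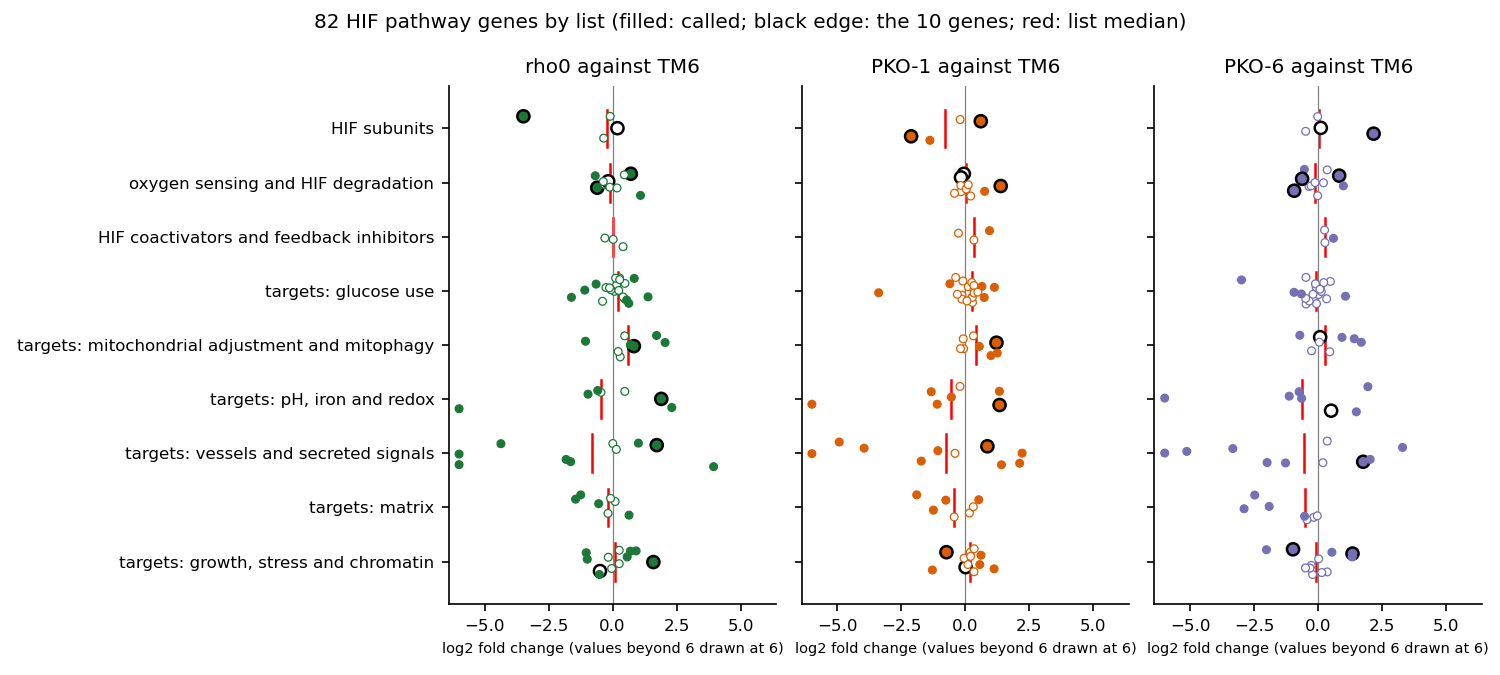
Log2 fold change against TM6 of the 82 tested pathway genes, with 1 row per list and 1 panel per line; filled points were called, black edges mark the 10 genes, red bars are list medians, and values beyond 6 are drawn at 6. Points lie on both sides of 0 in most lists, and the medians over all 82 genes are 0.05, 0.08 and -0.07.

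The split of *Car9* and *Bnip3* between the clones was looked for in the same lists, a choice made after the values were seen. Of the 82 genes, 7 were called higher in rho0 and PKO-1 and not called in PKO-6, beside 1.06% of all tested genes. *Car9* and *Bnip3* set the split and are among the 7, so the count is a description. Besides *Car9* and *Bnip3* these were *Pdk1*, the kinase that limits pyruvate entry into mitochondria, *Aldoc*, an aldolase, *Flt1*, a receptor for VEGF, *Kdm3a*, a histone demethylase, and *Fam162a*, a mitochondrial protein induced by hypoxia. *Pdk1* had a log2 fold change of 0.63 in rho0, 0.64 in PKO-1 and 0.07 in PKO-6, and *Flt1* of 1.01, 1.41 and 0.18. *Fam162a* (log2 0.45, adjusted p = 2.53e-05) and *Kdm3a* (log2 0.35, adjusted p = 0.000271) missed the call in PKO-6 by the size of the difference only, and *Car9* missed it narrowly (log2 0.50, adjusted p = 0.0107). In rho0 the call of *Kdm3a* was lost with chromosome medians removed (log2 0.42) and that of *Aldoc* without rho0 replicate 1 and PKO-6 replicate 3 (log2 0.44). The reverse split, called higher in rho0 and PKO-6 and not called in PKO-1, took 2 of the 82 genes (2.44%), *Ddit4* and *Ndufa4l2*, beside 5.37% of all genes. A further 4 (4.88%), *Cited2*, *Mxi1*, *Pgf* and *Hilpda*, were called higher in both clones and not called in rho0, beside 2.48% of all genes.

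For each of the 10 genes the 3 genes most like it were found by Pearson's r of log2 CPM over the 12 libraries, among 11205 genes that averaged 100 or more normalized counts. With 4 clusters of 3 libraries such an r mostly restates the order of the lines, so it is given as a description. *Vegfa* was most like *Stard6* (r = 0.994), *Rbbp5* and *Hoxb3*, *Ndrg1* like *Mcam* (r = 0.995), *Steap1* and *Nmnat3*, and *Car9* like *Dgka* (r = 0.997), *Setd6* and *Med1*. *Bnip3* was most like *Sema3c* (r = 0.989), *Flt1* (r = 0.988) and *Eed*, of which *Flt1* is in the lists above. *Hif1a* was most like *Pvrl3* (r = 0.979), *Ift74* and *4930453N24Rik*, and *Egln3* like *Ttc8* (r = 0.992), which lies on the same chromosome, *Gata6* and *1700012B09Rik*. *Egln1* was most like *Zcchc14* (r = 0.993), *Vim* and *Glg1*, and *Zcchc14* and *Glg1* share chromosome 8 with it. *Vhl* was most like *Nob1* (r = 0.985), *Tor1aip1* and *Nt5c3b*, *Ankrd37* like *Sspn* (r = 0.968), *Anapc15* and *Tfg*, and *Epas1* like *Sgpl1* (r = 0.987) and *Peg13*.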

How the data were processed

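The data are 12 RNA-Seq libraries, with 3 cultures for every line. The authors made strand-specific, ribosomal RNA depleted libraries in technical duplicate, merged the duplicates and estimated counts with RSEM 1.2.25 and bowtie2 against RefSeq transcripts of mm10 (GRCm38). The deposited gene matrix holds expected counts (estimated counts, not normalized), of which 12.5% had decimals, and these were rounded. The deposited per-library tables give expected counts and TPM per transcript, both made by the authors with RSEM. The authors' percent column in those tables is the share of each transcript within its gene, and shares were recomputed here from the counts. Coordinates are those of the deposited tables. *Rn45s* held 12.2% to 19.6% of the counts, and mtDNA-encoded RNA was not analysed here.

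In R 4.3.3 with edgeR 4.0.16, filterByExpr (minimum count 10) kept 14026 genes, scaling was by TMM, and the quasi-likelihood model had the 4 lines as its groups. P values were adjusted over all tested genes by the Benjamini-Hochberg procedure. The fit was tested on simulated data. The study pooled both PKO clones, and the clones were kept apart here because the genes are described across the 4 lines. Alternatives were another scaling, DESeq2 1.42.0, no filter, pooled clones, chromosome medians removed, a replicate block and each library left out, and, added after the data were seen, 2 libraries left out together. Figures were drawn with Matplotlib 3.10.9. Replicate numbers are shared by all lines, and the deviations of same-numbered libraries from their line means had correlations from -0.39 to 0.25. Only the 3 pairs of TM6 and PKO-6 all exceeded 0.1 (0.25, 0.25 and 0.21). A fit of only these lines with the replicate number as a block was therefore added. Its pairing comes from the data and not from the labels. The tests reported for PKO-6 against TM6 used no block and no pairing. Intervals of count ratios are exact binomial intervals at 95%.

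The genes named are the 10 members, from each list up to 3 called higher and up to 3 called lower in all 3 lines with the largest mean change, genes called in opposite directions, the 3 genes most like each member, and *Pnpt1*. Genes withheld for evaluation that this rule names are not reported here. *Arnt*, *Fundc1*, *Ufsp2*, the single markers and the genes called in 2 of the 3 lines were picked after their values were seen. The members and lists were chosen with earlier results of these data known.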

Additional observations from a re-analysis of the deposited data

Results flagged for a closer look

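The lines differed in the direction of *Ndrg1* and *Epas1*. *Ndrg1* was higher than TM6 in rho0 and PKO-6 and lower in PKO-1, and the direct tests gave a log2 difference of -2.34 for PKO-1 against rho0 and of -2.08 for PKO-1 against PKO-6 (edgeR, adjusted p = 1.63e-11 and 2.50e-11), with every PKO-1 library below every library of both lines. *Epas1* was higher than TM6 in PKO-6 and lower in rho0 and PKO-1, and the direct tests gave a log2 difference of -4.29 for PKO-1 against PKO-6 and of 5.65 for PKO-6 against rho0 (adjusted p = 8.56e-07 and 4.87e-07). Those sizes for *Epas1* rest on 8 counts in PKO-1 and 3 in rho0 and depend on the fit's handling of so few counts. The gene was tested because of its counts in PKO-6, so its differences from that clone are a description. With 3 libraries per line no single value was tested for standing apart from its line. Without rho0 replicate 1 and PKO-6 replicate 3, the libraries that differed most from the others of their lines, no call of the 10 genes changed in any of the 6 comparisons.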

How the results depend on the processing

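Values below are log2 fold changes unless they are counts of genes. Pooling PKO-1 and PKO-6 as 1 group changed the most, because it counts the gap between the clones as spread. For rho0 against TM6 it ended the calls of *Epas1* (-3.50, adjusted p = 0.0842), *Egln1* (-0.60), *Bnip3* (0.83) and *Ndrg1* (1.59, adjusted p = 0.0459) and left 25 pathway genes called in place of 41. For PKO against TM6 the pooled values were 0.37 for *Hif1a*, 1.25 for *Epas1*, 0.98 for *Car9*, 0.75 for *Bnip3*, -0.41 for *Ankrd37*, 0.65 for *Ndrg1*, -0.38 for *Vhl* and -0.43 for *Egln1*, and none was called. *Vegfa* and *Egln3* kept their calls. Pooled, 3607 genes were called against TM6 (5799 for PKO-6 alone) and 1500 against rho0, with 8 pathway genes. Against rho0 the pooled sign turned for *Bnip3* (-0.0776, from PKO-1) and for *Hif1a* (0.18), *Egln1* (0.17), *Vegfa* (-0.35) and *Ankrd37* (0.0875, from PKO-6).

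With chromosome medians removed, *Hif1a* was at -0.36, 0.0435 and -0.43 in rho0, PKO-1 and PKO-6, *Egln3* at 0.16 in rho0 and 0.29 in PKO-6, *Egln1* at -0.42 in rho0 and 0.0527 in PKO-1, and *Ankrd37* at -0.56 in PKO-6. *Ankrd37* in PKO-1, at 0.0076 by the test reported, was -0.0170 with DESeq2 size factors, -0.0118 without the filter, -0.0140 with only the compared lines, -0.0154 by DESeq2's Wald test and -0.0576 in TPM.

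Leaving out 1 library moved *Ankrd37* in PKO-1 between -0.14 and 0.0769, *Ankrd37* in rho0 between -0.63 (called, without TM6 replicate 1) and -0.43, *Epas1* in PKO-1 between -2.58 and -1.89, *Car9* in PKO-6 between 0.32 and 0.64, and *Bnip3* in PKO-6 between -0.0162 and 0.12. For PKO-1 against rho0, *Vhl* ranged from -0.0640 to 0.0494, and for PKO-6 against rho0, *Vegfa* ranged from -0.0383 to 0.11. With the replicate number as a block, 5776 genes were called for PKO-6 against TM6, and 5966 in a fit of only TM6 and PKO-6 with the block, added after the data were seen. Neither fit with the block changed a call of the 10 genes. Without both rho0 replicate 1 and PKO-6 replicate 3, also added after the data were seen, the sign turned for uncalled values, *Ankrd37* in PKO-1 (-0.0228), *Hif1a* in PKO-6 (-0.0249), *Vhl* for PKO-1 against rho0 (0.0492) and *Vegfa* for PKO-6 against rho0 (-0.11).

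Depth limits *Epas1* above all, since 3 of the 4 lines held 42 counts or fewer in all. The rho0, PKO-1 and PKO-6 lines are 1 clone or colony each, so clone and genotype cannot be told apart. With chromosome-wide shifts against TM6 taken off, calls of *Hif1a*, *Egln3*, *Egln1* and *Ankrd37* against TM6 were lost. The protein level of HIF alpha was not measured in these data.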
